A study of Homo sapiens with 18 samples.

Results

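The cell cycle and mitosis genes described here are 47 genes chosen by name: 20 that act at the start of S phase or in DNA replication, 24 that act in G2 and mitosis, and the 3 D-type cyclins. All 47 had a row of their own among the 55766 gene rows of the RNA count table, and 46 passed the filter on low counts. The exception was UBE2C, with 1 to 7 counts per library. The cells were K562, an established human erythroleukaemia line, carrying a B2M:tdTomato transgene, which all groups shared, controls included. In the TALE and dCas9 groups the B2M promoter had been silenced by DNA methylation that plasmid-coded TALE or dCas9 proteins directed there, and the control cells were untreated. Treated cells received 3 plasmids, each coding for a different repressor, and the dCas9 cells also a guide RNA plasmid. RNA-seq and MeDIP-seq, which captures methylated DNA with an antibody, gave 3 libraries per group and assay. The time from treatment to harvest, and whether the cells were clones or sorted, were not given in the sources used here.

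A dividing cell moves through phases that are driven by cyclins bound to cyclin-dependent kinases. D cyclins act early in G1 and lead to phosphorylation of the retinoblastoma protein, which frees E2F factors to switch on genes for DNA replication. Later, the DREAM complex, B-MYB and FOXM1 govern a second wave of genes for G2 and mitosis, whose promoters often carry a short element called CHR next to CCAAT boxes. K562 cells grow without added cytokines and carry the BCR-ABL fusion kinase, so genes of both waves are normally active in the bulk culture. Such cultures hold cells of every phase, so more cells in a phase and more RNA per cell cannot be told apart here.

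The promoter letters of the S-phase and the G2/M list are given first, since the lists stand for these 2 waves. RefSeq promoter windows of GRCh38.p14, 250 bases before to 50 bases after a start, were at hand for 37 of the 47 genes, 17 of S phase, 19 of G2/M and 1 D cyclin. In a check of 1 window per gene, bases after the start were found in an annotated transcript of the gene for 33 of the 37. Genes that failed this check were kept in the counts. Without a window were AURKA, BIRC5, CCND1, CCND2, CCNE2, MCM4, MCM5, TPX2, TTK and UBE2C. Both strands were searched, and a gene counted once if any of its windows held the letters. An E2F-type motif, TTTCGCGC or TTTGGCGC, was found for 7 of 17 S-phase genes (41.2%) and 1 of 19 G2/M genes (5.26%), against 1.4% of all 27305 genes with a window. The CHR letters TTTGAA were found for 1 of 17 S-phase genes (5.88%) and 12 of 19 G2/M genes (63.2%), against 18.2% of all genes. CCAAT occurred for 11 S-phase genes (64.7%) and 17 G2/M genes (89.5%), against 39.7%. Both CHR letters and CCAAT were present for 11 G2/M genes (57.9%), against 7.26% of all genes. These counts describe letters in a window and are not evidence of binding.

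Stretches of S-phase promoters are shown because each of the 4 MCM helicase subunits with a window, and E2F1 itself, carries the E2F-type letters, which are in capitals; each reads 5′ to 3′ on the gene's strand. In MCM2 the motif also occurs on the opposite strand, overlapping the capitals in part, and in MCM6 the other E2F-type motif overlaps it on the opposite strand.
MCM2 (chr3:127598402-127598431, plus strand): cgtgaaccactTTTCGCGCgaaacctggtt
MCM3 (chr6:52284728-52284757, minus strand): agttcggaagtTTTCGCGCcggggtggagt
MCM6 (chr2:135876515-135876544, minus strand): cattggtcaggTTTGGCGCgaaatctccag
MCM7 (chr7:100101388-100101417, minus strand): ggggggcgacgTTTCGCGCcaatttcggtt
CDC6 (chr17:40287875-40287904, plus strand): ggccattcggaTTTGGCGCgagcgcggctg
E2F1 (chr20:33686387-33686416, minus strand): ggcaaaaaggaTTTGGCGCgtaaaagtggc

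Stretches of G2/M promoters are shown for the CHR letters, in capitals, in the same build and reading direction. In CDK1 and KIF23 the letters attgg, which spell CCAAT on the other strand, stand just before the CHR letters.
CDK1 (chr10:60778398-60778425, plus strand): tgattggctgcTTTGAAagtctacgggc
CCNB2 (chr15:59105106-59105133, plus strand): gcgacgcggtaTTTGAAtcctggaacaa
PLK1 (chr16:23678849-23678876, plus strand): ccagcgccgcgTTTGAAttcggggagga
BUB1B (chr15:40161035-40161062, plus strand): ggaccgttaaaTTTGAAacttggcggct
KIF23 (chr15:69414283-69414310, plus strand): tgattggcccgTTTGAAatgcgccaggc
MKI67 (chr10:128126436-128126463, minus strand): cttcgttttcgTTTGAAttgggcgggcg

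RNA libraries held 8460076 to 12050554 counts and MeDIP libraries 2529729 to 4492751 counts within the listed regions. Counts of the B2M_tomato row, the transgene, were 359 to 393 CPM (counts scaled to a common library size) in untreated, 12.5 to 18.2 in TALE and 13.9 to 19.0 in dCas9 libraries, in the order of the labels. All 10 erythroid K562 markers passed the filter and summed to 5527 to 8745 CPM, against 129 to 171 CPM for 11 markers of other blood or epithelial cells. The share of counts on mitochondrial genes was 4.04 to 6.32% in TALE, 7.15 to 10.3% in untreated and 6.15 to 14.0% in dCas9 libraries, so TALE and untreated libraries did not overlap. TALE replicates 1 and 3 stood apart from each other in the genes with long transcripts, as given below, and p-values measure only the spread between these libraries, which may be technical.

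The levels of the 46 tested genes in untreated cells, in CPM per kilobase of the longest annotated transcript, spanned from 3.34 to 149. At the top stood CDC45, a part of the replicative helicase, at 149 ± 12.4 (SD, n = 3), and CCNA2, the cyclin of S phase and G2, at 149 ± 13.5. HMMR, a spindle-associated protein, followed at 141 ± 3.71, and CCNB1, the mitotic cyclin B1, at 133 ± 8.18. Each of these 4 differed from the next in this order by no more than the larger of their SDs. CDK1, the kinase that drives entry into mitosis, was next at 116 ± 0.659, below all of them. This order depends on the length used: per kb of all annotated exons CCNA2 had 149, CCNB1 111, HMMR 108, CDC45 104 and CDK1 58.0. The nucleotide synthesis enzyme TYMS had 106 ± 8.81, the microtubule factor TPX2 101 ± 14.5, and the sliding clamp PCNA 99.4 ± 6.32, again not separated by their spread.

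**Figure D1:**
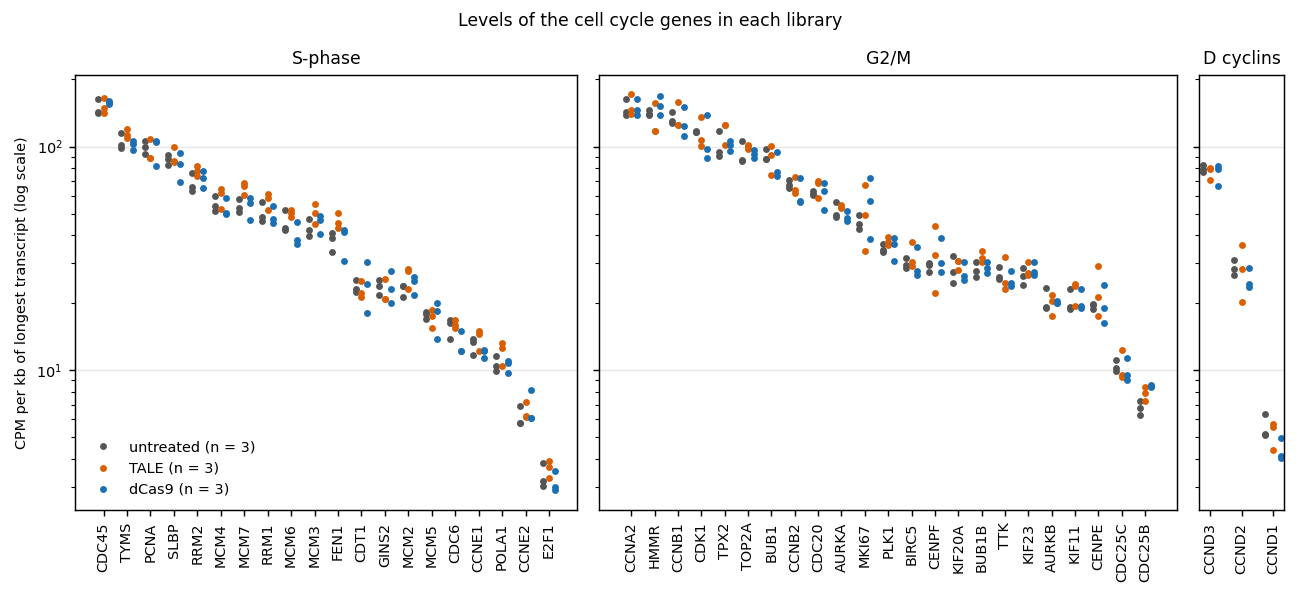
Level of each of the 46 genes that passed the filter, in CPM per kb of the longest transcript on a log scale, with 1 point per library (3 untreated, 3 TALE, 3 dCas9), ordered by the untreated mean within each list. The levels run from CDC45 at 149 to E2F1 at 3.34, and the points of the 3 groups overlap for most genes.

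Low levels were found for several regulators. E2F1, the transcription factor that drives S-phase genes, had 3.34 ± 0.418 CPM per kb, and CCNE2, a cyclin of the G1/S step whose exons overlap INTS8 on the other strand over 37.1% of their length, had 6.15 ± 0.641. POLA1, the catalytic subunit of DNA polymerase alpha, had 10.6 ± 0.794. Among the tested G2/M genes the phosphatases CDC25B, at 6.77 ± 0.477, and CDC25C, at 10.4 ± 0.612, were lowest under both lengths. The kinesin-like motor CENPE, at 19.3 ± 0.47, was below KIF11, at 20.4 ± 2.36, and AURKB, at 20.4 ± 2.44, by less than the SDs of those 2 genes. CDC25B and CDC25C activate cyclin-dependent kinases by removing inhibitory phosphates. Of the 3 D cyclins CCND1 was far below the others under both lengths, while the gap between CCND3 and CCND2 depended on the length used. CCND3 had 79.5 ± 2.89, CCND2 28.6 ± 2.23 and CCND1 5.54 ± 0.696 CPM per kb. Per kb of all annotated exons they had 33.0, 24.5 and 4.93 in that order. Without scaling to length, CCND3 had 190 ± 6.93 and CCND2 196 ± 15.3 CPM.

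The 6 MCM proteins form 1 hexameric helicase, yet their RNA levels per kb differed. MCM4 had 55.1 ± 4.21, MCM7 53.9 ± 3.75, MCM6 45.7 ± 5.25 and MCM3 43.1 ± 3.75 CPM per kb in untreated cells, while MCM2 had 22.9 ± 1.51 and MCM5 17.6 ± 0.676. Here too the order changed with the length: per kb of all annotated exons, MCM6 led with 41.5 and MCM4 had 30.5. MCM2 and MCM5 were the lowest under both lengths, with 16.7 and 11.1 per kb of all exons.

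Treatment with TALE was compared with no treatment for all 46 genes. None passed the threshold of an adjusted p under 0.05 in edgeR's quasi-likelihood test, or in DESeq2. Over all 13786 genes tested, 3 passed (0.0218%). At an unadjusted p under 0.05 there were 2 of the 46 genes, both higher, against 7.15% of all genes (2.86% higher and 4.29% lower). The 95% interval of the fold change lay within 1.5-fold either way for 45 of the 46 genes, all 20 S-phase genes among them, against 60.4% of all genes. Here and below, the genes in that share were not matched to the 46 by level. The difference is therefore not read as a trait of cell cycle genes.

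MCM7 (chr7:99689856-99699563, hg19), a helicase subunit, had 179, 163 and 156 CPM in untreated replicates 1, 2 and 3 and 212, 206 and 188 in the TALE replicates. Every TALE library lay above every untreated one. The log2 fold change was 0.28 (95% interval 0.03 to 0.54), with an unadjusted p of 0.0308 and an adjusted p of 0.649 by edgeR. The exons of MCM7 overlap AP4M1 on the other strand over 7.9% of their length, and whether the counting used strand was not given in the sources used here. Exons on the other strand also overlap MCM2 (23.6%, a lncRNA), PLK1 (11.6%, a lncRNA), CCNA2 (9.24%, EXOSC9) and CDC25C (8.8%, FAM53C), so the counts of these genes carry the same doubt. On the same strand, the exons of CCND2 overlap another protein-coding gene over 12.5% of their length, and those of BUB1B overlap PAK6 over 5.38%. For these 2 genes the doubt does not depend on the strand setting. FEN1 (chr11:61560383-61564710), the flap endonuclease that processes Okazaki fragments, had 82.7, 78.7 and 68.2 CPM in untreated and 102, 91.3 and 86.7 in TALE libraries, again without overlap. Its log2 fold change was 0.28 (0.00 to 0.56), with an unadjusted p of 0.0473 and an adjusted p of 0.696 by edgeR. Also without overlap was CDC25B (chr20:3767419-3786768), with 19.6, 22.6 and 21.1 CPM in untreated and 24.6, 26.3 and 22.7 in TALE libraries, at a log2 fold change of 0.22 and an unadjusted p of 0.0915. Such non-overlap with TALE higher was seen for 3 of 46 genes, against 6.09% of all genes, and with TALE lower for 0 of 46, against 6.44%.

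S-phase genes had a median log2 fold change of 0.11 in TALE over untreated cells, from −0.07 for GINS2 to 0.28 for FEN1, with 16 of 20 above 0. G2/M genes had a median of 0.09, from −0.11 for HMMR to 0.23 for CENPE, with 16 of 23 above 0. Over all genes the median was 0.00, with 50.6% above 0. The 3 D cyclins were all below 0, between −0.08 and −0.01. Of the genes with a canonical role, MCM2 had 0.20, MCM4 0.11, E2F1 0.13, CCNE1 0.10 and PCNA −0.06. In the G2/M list TOP2A, the topoisomerase that untangles sister chromatids, had 0.10, the mitotic kinases PLK1 and AURKA 0.11 and 0.06, and the APC/C activator CDC20 0.09. CCNA2, CCNB1 and CDK1 had 0.04, 0.03 and −0.03.

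Per library, the groups overlapped for the cyclins CCNA2, CCNB1 and CCNE1 and for the kinase CDK1. CCNA2 had 451, 381 and 393 CPM in untreated, 401, 384 and 471 in TALE and 451, 400 and 382 in dCas9 replicates. CCNB1 had 289, 264 and 258 CPM in untreated, 254, 253 and 322 in TALE and 305, 250 and 226 in dCas9 replicates. In both cyclins the highest TALE library was replicate 3 and the highest dCas9 library replicate 1. CDK1 had the same highest libraries, with 195, 208 and 263 CPM in TALE and 270, 191 and 173 in dCas9 replicates, around 226, 228 and 226 in untreated ones. CCNE1, the cyclin of the G1/S step, had 26.2, 26.8 and 22.7 CPM in untreated, 29.3, 28.4 and 23.7 in TALE and 23.8, 22.2 and 24.1 in dCas9 replicates. E2F1 had the fewest counts of the tested genes, at 7.78 to 10.6 CPM over all 9 libraries.

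In TALE over untreated none of the other S-phase genes reached an unadjusted p under 0.05 by edgeR. The ribonucleotide reductase subunits RRM1 and RRM2, which make DNA precursors, had 160 ± 17.2 and 252 ± 24.7 CPM in untreated and 182 ± 14.8 and 286 ± 14.8 in TALE cells (SD, n = 3), at unadjusted p of 0.149 and 0.147 by edgeR. MCM3 had 138 ± 12 and 162 ± 16.6 CPM in the same groups (log2 fold change 0.22, unadjusted p 0.0843 by edgeR), and POLA1 61.3 ± 4.58 and 69.4 ± 8.15. MCM5, CDT1, GINS2, a subunit of the GINS helicase complex, and PCNA were the 4 S-phase genes below 0 in TALE over untreated, all between −0.07 and −0.04. SLBP, which binds the stem-loop of histone mRNAs, and CDC45 had 0.04 and 0.02. In dCas9 over untreated RRM1 had −0.04, RRM2 0.06, MCM3 0.08, SLBP −0.09 and CDC45 0.08.

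Among the other G2/M genes the spindle checkpoint kinase BUB1 and its paralogue BUB1B differed in sign in TALE over untreated. BUB1B had 103 ± 7.96 CPM in untreated and 118 ± 6.89 in TALE cells (log2 fold change 0.19, unadjusted p 0.0988 by edgeR), and BUB1 343 ± 20.3 and 335 ± 50.1 (−0.04). TPX2 had 365 ± 52.3 and 423 ± 47.5 CPM (0.21, unadjusted p 0.130 by edgeR). The kinesins KIF11, KIF20A and KIF23, which act on the spindle and in cytokinesis, had 0.14, 0.08 and 0.09, and BIRC5, the survivin of the chromosomal passenger complex, 0.11. AURKB, the kinase of that complex, had −0.04, CCNB2 −0.03, TTK −0.02 and CDC25C −0.00. In dCas9 over untreated these genes lay between −0.16 for BUB1 and 0.09 for KIF23.

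Summed CPM of the 20 S-phase genes was 2777, 2722 and 2663 in TALE replicates 1 to 3 and 2698, 2465 and 2366 in the untreated replicates. The groups overlapped through untreated replicate 1. The 23 G2/M genes summed to 5297, 4961 and 4932 CPM in TALE and 5062, 4720 and 4621 in untreated libraries, also with overlap. The mitochondrial share of counts, given above, was lower in every TALE library than in every untreated one, and its part in these sums was not tested.

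**Figure D2:**
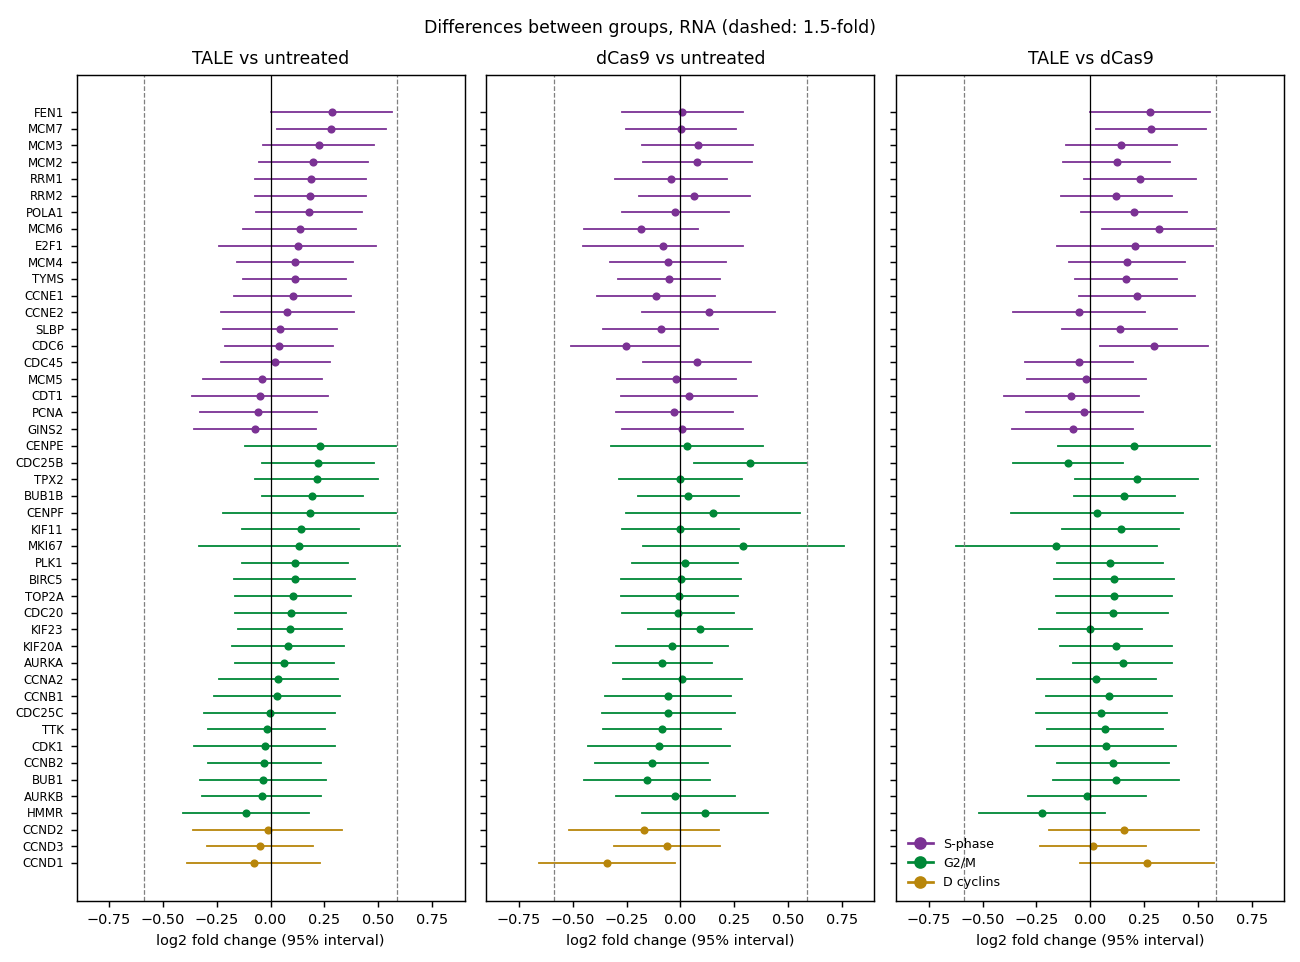
Log2 fold change (point) with its 95% interval (line) for 46 genes in TALE over untreated, dCas9 over untreated and TALE over dCas9, with dashed lines at 1.5-fold. S-phase and G2/M genes lie mostly just above 0 in the TALE panels, at medians of 0.09 to 0.15, and around 0 in the panel of dCas9 over untreated.

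In the comparison of dCas9 with untreated cells, which shares its untreated libraries with the comparison above, 0 of the 46 genes passed the threshold in edgeR or DESeq2, against 4 of all genes (0.029%) in edgeR. An unadjusted p under 0.05 was found for 1 gene higher and 2 lower, against 5.93% of all genes (3.1% higher and 2.83% lower). The 95% interval lay within 1.5-fold for 43 of 46 genes, against 61.1% of all genes, and the exceptions were CDC25B, MKI67 and CCND1. S-phase genes had a median log2 fold change of −0.02, from −0.25 for CDC6 to 0.13 for CCNE2, with 9 of 20 above 0, against 49.2% of all genes. For G2/M genes the median was −0.00, from −0.16 for BUB1 to 0.32 for CDC25B, with 10 of 23 above 0.

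CDC25B had 26.0, 26.7 and 26.4 CPM in dCas9 replicates 1 to 3, above all untreated libraries (19.6 to 22.6 CPM). The log2 fold change was 0.32 (0.06 to 0.59), with an unadjusted p of 0.0177 and an adjusted p of 0.699 by edgeR. CDC25B also had the narrowest spread but 1 among the 46 genes, with a pooled SD of 0.0854 on the log2 scale, against a median of 0.209 over all genes. For the mean of both silenced groups over untreated, the log2 fold change was 0.27, with an unadjusted p of 0.0220 and an adjusted p of 0.659 by edgeR. It was the 1 gene of the 46 with an unadjusted p under 0.05 in that comparison, against 6.35% of all genes. There too 0 of the 46 genes passed, in edgeR and in DESeq2, against 5 of all genes in edgeR (0.0363%), and the only gene without overlap was CDC25B, higher, against 1.53% of all genes higher and 2.01% lower.

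CCND1 (chr11:69455924-69469242), which codes for cyclin D1, had 21.6, 21.9 and 26.9 CPM in untreated and 17.5, 17.1 and 20.9 in dCas9 libraries. All dCas9 libraries lay below all untreated ones, though the nearest values were 20.9 and 21.6. The log2 fold change was −0.34 (−0.65 to −0.02), with an unadjusted p of 0.0362 and an adjusted p of 0.800 by edgeR. The exons of CCND1 overlap LTO1 on the other strand over 10.4% of their length, with the doubt on strand given for MCM7. CCND2 and CCND3 had log2 fold changes of −0.17 and −0.06, so the 3 D cyclins were all below 0, as for TALE. CDC6 (chr17:38444131-38460909), which loads the MCM helicase onto origins, had 74.2, 76.1 and 63.0 CPM in untreated and 68.1, 55.5 and 55.2 in dCas9 libraries, with overlap. Its log2 fold change was −0.25 (−0.51 to −0.00), with an unadjusted p of 0.0473 and an adjusted p of 0.837 by edgeR. Non-overlap was seen for 1 gene with dCas9 higher (CDC25B) and 1 with dCas9 lower (CCND1), against 5.6 and 5.97% of all genes.

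**Figure D3:**
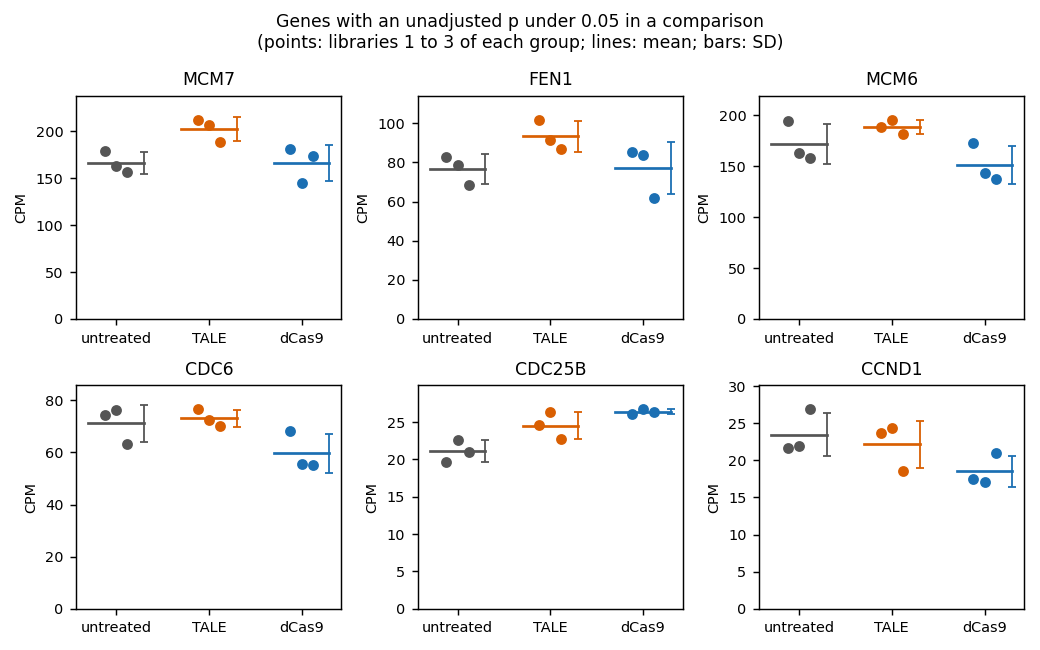
CPM of the 6 genes with an unadjusted p under 0.05 in at least 1 comparison, with 1 point per library, a line at each group's mean and a bar of 1 SD (n = 3), on axes that start at 0. The group means of MCM7 are 166 (untreated), 202 (TALE) and 166 (dCas9), and those of CDC25B 21.1, 24.5 and 26.4.

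The direct comparison of TALE with dCas9 gave 0 of 46 genes past the threshold, in edgeR and in DESeq2, and 0 of all genes in edgeR (0%). At an unadjusted p under 0.05 there were 3 genes, all S-phase genes higher in TALE, against 6.38% of all genes (2.6% higher and 3.79% lower). MCM6 (chr2:136597196-136634013), a helicase subunit, had 188, 196 and 181 CPM in TALE and 173, 143 and 138 in dCas9 libraries, at a log2 difference of 0.32 (0.06 to 0.58), an unadjusted p of 0.0203 and an adjusted p of 0.745 by edgeR. CDC6 had 76.5, 72.6 and 70.2 CPM in TALE against the dCas9 values above, without overlap, at 0.29 (0.04 to 0.54), unadjusted p 0.0238. MCM7 had 181, 145 and 173 CPM in dCas9 libraries, all below TALE, at 0.28 (0.03 to 0.53), unadjusted p 0.0316. FEN1 had 85.4, 83.9 and 61.8 CPM in dCas9 libraries, also all below TALE, at 0.28 (−0.00 to 0.55), unadjusted p 0.0522.

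Non-overlap with TALE higher than dCas9 was seen for 7 of the 46 genes, against 4.88% of all genes, and with TALE lower for 0, against 4.5%. Besides MCM6, MCM7, CDC6 and FEN1 these were TYMS, TOP2A and AURKA. The count of TYMS is uncertain, since 39.9% of its exon length is shared with ENOSF1 on the other strand. AURKA had 123, 121 and 119 CPM in TALE and 115, 105 and 107 in dCas9 libraries, at a log2 difference of 0.15 with an unadjusted p of 0.188. S-phase genes had a median of 0.15, with 14 of 20 above 0, against 50.4% of all genes, and a range from −0.09 for CDT1, the licensing factor, to 0.32 for MCM6. The median for G2/M genes was 0.09, with 18 of 23 above 0, from −0.23 for HMMR to 0.22 for TPX2. The 3 D cyclins were above 0, with CCND1 at 0.26, CCND2 at 0.16 and CCND3 at 0.01. The interval lay within 1.5-fold for 45 of 46 genes, against 61% of all genes.

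The rest of the pathway was given by lists of 45 further replication genes, 61 further G2/M genes and 23 cell-cycle regulators, all in the table and all tested. None passed the threshold in any comparison. For TALE over untreated the medians were 0.07, 0.10 and 0.07 in that order of lists, with 84.4, 72.1 and 65.2% of the genes above 0, against 50.6% of all genes. An unadjusted p under 0.05 was reached by 2 replication genes higher, 2 G2/M genes higher and 1 lower, and 1 regulator higher, against 7.15% of all genes. For dCas9 over untreated the medians were 0.02, 0.03 and 0.01, with 55.6, 67.2 and 52.2% above 0, against 49.2%. There 1 G2/M gene was higher and 1 regulator lower at an unadjusted p under 0.05, against 5.93% of all genes. For TALE over dCas9 the medians were 0.06, 0.07 and 0.06, with 68.9, 67.2 and 73.9% above 0, against 50.4%. In that last comparison 2 genes of each list were higher and 1 G2/M gene lower at an unadjusted p under 0.05, against 6.38%.

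The spread between libraries of 1 group was small for most of the genes and large for a few. The median pooled SD on the log2 scale was 0.137 for S-phase genes, 0.156 for G2/M genes and 0.209 for all genes. All genes were taken at any level that passed the filter, so a smaller spread than genes of like level was not shown. Over all 9 libraries the highest value was 1.16 times the lowest for CDC45 and 2.13 times for MKI67. MKI67, the proliferation marker Ki-67, had 856, 626 and 432 CPM in TALE replicates 1 to 3, 542, 630 and 574 in untreated and 490, 922 and 724 in dCas9 replicates. The TALE and dCas9 values enclosed the untreated ones. The log2 fold change of MKI67 in TALE over untreated was 0.13 (−0.33 to 0.60), and it was −0.14 without TALE replicate 1 and 0.35 without TALE replicate 3. In dCas9 over untreated it was 0.29 (−0.18 to 0.76), and 0.06 without dCas9 replicate 2 and 0.50 without dCas9 replicate 1.

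The kinetochore genes CENPF and CENPE and the cyclin CCND2 had the next largest spread and the same order of TALE libraries. CENPF had 453, 335 and 226 CPM in TALE replicates 1 to 3 against 302, 311 and 281 in untreated libraries. CENPE had 255, 186 and 153 against 170, 172 and 164, and CCND2 249, 194 and 138 against 182, 212 and 194. These and MKI67 are the 4 genes of the 46 with the longest transcripts, 12716 bases for MKI67, 10290 for CENPF, 8742 for CENPE and 6849 for CCND2. TALE replicate 1 held 1.98 times the CPM of TALE replicate 3 for MKI67, 2.0 times for CENPF, 1.80 times for CCND2 and 1.67 times for CENPE. For the other 42 genes, with shorter transcripts, the same ratio ran from 0.726 for TTK to 1.27 for CCND1, with a median of 1.04, and was above 1 for 23 and below 1 for 19.

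Over the 46 genes the log2 ratio of TALE replicate 1 to replicate 3 had a Pearson correlation of 0.74 (Spearman 0.59) with the log2 length of the longest transcript. For dCas9 replicate 2 over replicate 1 it was 0.61 (0.38), and for untreated replicate 1 over replicate 2 it was −0.03 (0.10). Across 11935 genes with counts in every library these Pearson correlations were 0.39, 0.19 and 0.13. The points are genes of the same pair of libraries, not independent replicates, and the pairs were chosen after their values were seen. RNA quality was not measured in the sources used here, and its part in this relation was not tested.

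UBE2C, the ubiquitin-conjugating enzyme that works with the APC/C on mitotic cyclins, stood out by its low count. It had 2, 1 and 3 counts in the untreated, 2, 2 and 6 in the TALE and 5, 3 and 7 in the dCas9 replicates, 31 in all, or 0.124 to 0.694 CPM. The groups overlapped, and no fold change is given at such counts. By contrast CDC20, the APC/C activator, had 10411 counts in all. The table also has 4 rows named as UBE2C pseudogenes, with 1 to 3 counts each in all libraries together, so few counts were assigned to those rows as well. The annotation behind the count table was not given in the sources used here, and whether it covered all UBE2C transcripts was not tested, so the count is not read as a level of UBE2C RNA. The pseudogene row CDC20P1 held 768 counts, so part of the CDC20 signal may be split between these rows.

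UBE2C was also 1 of 2 genes of the 47 (4.26%) with a listed MeDIP region over the gene start, the other being TTK. Such a region was listed for 335 of 19165 protein-coding genes (1.75%). That region on chromosome 20 is 1518 bases long and runs from the upstream side of the start into the gene. A MeDIP peak of the authors' lists covered the UBE2C start in 9 of 9 samples, with a fold enrichment, the authors' value, of 1.87 to 4.22. A peak over the start in all 9 samples was listed for 0.704% of protein-coding genes. When only peaks with a −log10 q (the authors' value) of at least 5 were kept, the 9 of 9 did not hold. Then 0 of the 47 genes, UBE2C included, had a peak within 2 kb of the start in all 9 samples. Among the other 46 genes a peak covered the start of TTK in 1 dCas9 sample, at 1.26, and of CCND3 in 1 TALE sample, at 1.86. A peak over the start in at least 1 sample was thus listed for 3 of the 47 genes (6.38%), against 5.69% of protein-coding genes.

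MeDIP counts of the UBE2C region were 102, 69 and 102 in untreated, 52, 53 and 95 in TALE and 67, 105 and 52 in dCas9 libraries. Scaled to library size these were 31.3, 29.3 and 31.8 CPM in untreated libraries. TALE libraries had 24, 20.8 and 26.1 CPM, and dCas9 libraries 26.5, 27.3 and 22.5. The treated values were all below the untreated ones, but how often groups stand apart over all regions was not counted. Such separation was not particular to UBE2C. At the region upstream of FEN1, dCas9 libraries (21.2 to 25.3 CPM) lay above untreated ones (14.3 to 20.8 CPM). The log2 fold change in TALE over untreated was −0.38 (−0.74 to −0.01), with an unadjusted p of 0.0454 and an adjusted p of 1.00 by edgeR, and in dCas9 it was −0.27 with an unadjusted p of 0.141. The region of the kinase gene TTK, at chr6:80713582-80713872 of hg19 (GRCh37), held 0 to 9 counts per library and did not pass the filter. TTK RNA was 95.4 to 107 CPM in untreated libraries. Capture by MeDIP rises with CpG density as well as with methylation, so levels are not compared between regions.

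MeDIP regions within 2 kb of the start were listed for 24 of the 47 genes (51.1%), against 43.2% of 19165 protein-coding genes, and within 1 kb for 13 (27.7%), against 20.5%. Only regions with a peak in some sample are in the table. Of 28 such regions 22 passed the filter, and 0 passed the threshold in any of the 3 comparisons by edgeR, where 0, 1 and 1 of all 105652 regions passed (0, 0.000947 and 0.000947%) for TALE over untreated, dCas9 over untreated and TALE over dCas9. At an unadjusted p under 0.05 there were 2 in TALE over untreated, against 4.74% of all regions, 0 in dCas9 over untreated, against 4.69%, and 0 in TALE over dCas9, against 4.47%. Besides UBE2C this was a region 1385 bases upstream of KIF20A, a kinesin of cytokinesis, at chr5:137512744-137513023. It had 3.99, 1.70 and 5.29 CPM in untreated, 6.93, 7.07 and 9.06 in TALE and 4.35, 3.90 and 7.77 in dCas9 libraries. The log2 fold change in TALE over untreated was 1.03 (0.23 to 1.83), with an unadjusted p of 0.0118 and an adjusted p of 1.00 by edgeR. KIF20A RNA had a log2 fold change of 0.08 in the same comparison.

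**Figure D4:**
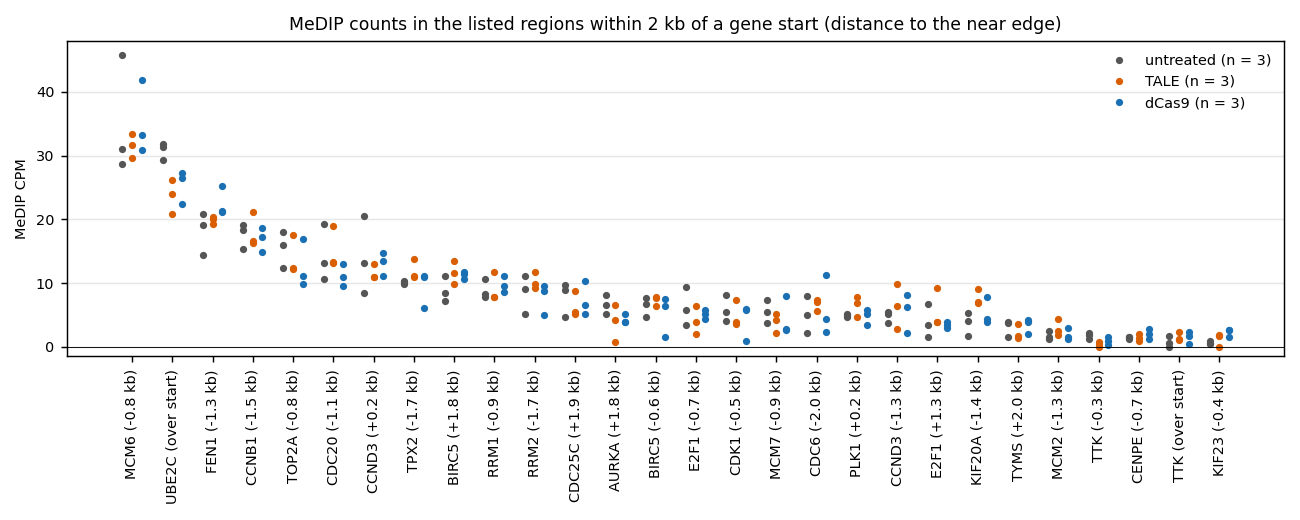
MeDIP CPM of the 28 listed regions within 2 kb of a gene start, with 1 point per library and group (n = 3), labelled by gene and by the distance in kb from the start to the near edge (minus upstream, plus downstream). Untreated points lie above both treated groups for UBE2C (31.3, 29.3 and 31.8 CPM). Some pairs of groups also stand apart at other genes, such as FEN1, TPX2, AURKA and KIF20A.

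A region of 1845 bases, with its near edge 807 bases upstream of MCM6, had 35.2 ± 9.31 CPM in untreated, 31.5 ± 1.90 in TALE and 35.3 ± 5.79 in dCas9 libraries (SD, n = 3). The differences were smaller than the spread. The other regions that passed the filter, those at UBE2C and MCM6 aside, had untreated group means of 3.66 to 18.1 CPM. They lay at FEN1, CCNB1, TOP2A, CDC20, TPX2, RRM1, RRM2, BIRC5, CCND3, E2F1, CDK1, MCM7, CDC6, PLK1, AURKA, CDC25C and KIF20A. The 6 regions that did not pass the filter, at MCM2, TYMS, CENPE, KIF23 and both of TTK, had untreated group means of 0.656 to 3.02 CPM. The median log2 fold change of the 22 regions was 0.06 for TALE and −0.10 for dCas9, both over untreated, with a median SE of 0.34 per region. A peak within 2 kb of the start was listed in at least 1 sample for 31 of 47 genes (66%), against 49.5% of 19165 protein-coding genes, and in all 9 samples for 11 (23.4%), against 17%. No peak was listed there in any sample for CCND1, CCND2, CCNA2, CCNB2, CDC25B, CCNE1, MCM3 or MCM4, among others.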

How the data were processed

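RNA-seq and MeDIP-seq libraries of K562 cells were compared, 3 per group, with groups and replicate numbers taken from the sample titles. As deposited, both tables hold unnormalized counts, of reads per gene symbol for RNA and per region for MeDIP. Per the submitters' processing notes, STAR 2.3.0 (RNA), and BWA 0.7.5, Picard, MACS2 and bedtools (MeDIP) were used with hg19. The gene counter, annotation and strand setting are not given in the sources used here. Per the labels' protocols, RNA was amplified with a kit for degraded RNA, and MeDIP libraries were pooled before capture, which limits differences in capture between them. The deposited peak lists, 1 per sample, give a score, a fold enrichment (a ratio) and −log10 p and q values, all the authors'.

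Tests used edgeR 4.0.16 under R 4.3.3 (glmQLFit and glmQLFTest, TMM factors, group means over all 9 libraries, filterByExpr with a minimum count of 10, prior count 0.125), with Benjamini-Hochberg adjustment over all 13786 genes or 105652 regions tested and a threshold of 0.05. CPM are TMM-scaled over tested features. DESeq2 1.42.0, other scalings and filters, a replicate block, and each library left out were alternatives. The scripts were tested on simulated data. Libraries of 1 group differed by more than sampling noise (chi-square per degree of freedom 2.14 to 56.6). Pairs from different groups had 4.74 to 76.6, so the 2 ranges overlapped. The lowest of these was TALE replicate 3 with dCas9 replicate 1. That pair was closer than any pair within TALE (lowest 13.3) or within dCas9 (lowest 21.9), and the reason was not tested. Positions are from GENCODE on GRCh37, where all 47 symbols matched, and promoter windows from RefSeq (GRCh38.p14), used for letters only.

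The members and lists were chosen with earlier results of these data known, and no list was tested as a set. Named genes were the D cyclins and 13 canonical genes, those with an unadjusted p under 0.05, the extremes of each list in fold change and level, and those with MeDIP signal at the start. Transcript length, library pairs and UBE2C were followed after values were seen.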

Additional observations from a re-analysis of the deposited data

How the results depend on the processing

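No alternative called any of the 46 genes or 22 regions: the smallest adjusted p was 0.219 for a gene and 0.902 for a region. Of 2898 fold changes under an alternative 244 had the opposite sign to the reported one. With total-count scaling the median log2 fold change was 0.19 for S-phase and 0.17 for G2/M genes in TALE over untreated, where all genes had 0.08, and 0.25 (S-phase) and 0.18 (G2/M) in TALE over dCas9, where all genes had 0.10. Leaving out each library gave S-phase medians of 0.07 to 0.18 (TALE over untreated), −0.07 to 0.01 (dCas9 over untreated) and 0.12 to 0.21 (TALE over dCas9), and G2/M medians of 0.04 to 0.11, −0.04 to 0.04 and 0.04 to 0.15. The cause was not tested.

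Counts of all genes called moved more. In the order TALE over untreated, dCas9 over untreated, TALE over dCas9 and silenced over untreated, they were 74, 89, 77 and 79 with no filter on low counts, where the median of all genes also moved to −0.23, −0.13, 0.00 and −0.24, and 2 to 16, 2 to 10, 0 to 21 and 2 to 33 with each library left out. At least 10 counts in every library left 1, 2 and 3 (TALE, dCas9 and silenced over untreated), and DESeq2 called 9, 29 and 36. Total-count scaling called 13 for silenced over untreated, and the libraries of the comparison alone 8 for dCas9 over untreated. MeDIP regions called ranged over 0 to 2, 0 to 3 and 0 to 1 in the first 3 comparisons with each library left out, and at least 10 counts in all left 0 for TALE over dCas9. Peaks within 2 kb of a start were listed in at least 1 sample for 19 genes at a −log10 q of at least 5. With at least 0.5 of the peak inside the window there were 20 genes, and within 1 kb 15. Peaks in all 9 samples were listed for 0, 5 and 5 genes under these settings, in that order, against 11 in the main setting. The share of all protein-coding genes was not counted under these settings.

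Same-numbered libraries did not deviate together (correlations −0.234 to 0.0972 for RNA and −0.00433 to 0.00443 for MeDIP), so the numbers were not used as pairs. With a replicate block dCas9 over untreated had 2 genes and 0 MeDIP regions called, and no other count of calls moved by over 1.5 times. UBE2C and the 6 regions under the filter had too few counts to be tested.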
